A study of Mus musculus with 9 samples.

Results

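The immediate early genes (IEGs) described here are *Fos*, *Fosb*, *Jun*, *Junb*, *Jund*, *Egr1*, *Atf3*, *Nr4a1*, *Ier2* and *Dusp1*. They were taken by symbol and not by any measured value, and all 10 are listed in each of the 9 count files, among 33274 symbols that are in at least 1 file and 12580 that are in every file. The files hold single-cell RNA-seq (Drop-seq) of mouse-derived cells from brains of female athymic nude mice. Nu-NB is 1 tumor-free brain, the 7 untreated patient-derived orthotopic xenografts (PDOXs) are P3, P8, P13, T16, T101, T192 and T233, and P3TMZ is 1 PDOX of the P3 model after temozolomide (TMZ). A PDOX is a human glioblastoma (GBM) grown in the mouse brain, so that tumor cells are human and the tumor microenvironment (TME) is of the mouse. Hosts of this strain lack a thymus and so hold few mature T cells, and all 9 samples share this background. T192 and T233 came from tumors of the same patient. By the methods of the study, Nu-NB and P8 were sorted by fluorescence (FACS), and all other samples were separated from human cells with magnetic beads (MACS). Enzymatic dissociation was the step that was not done on ice. Each library is 1 sample of its model. P3 and P3TMZ came from 1 mouse each by the study, and the labels give no number of mice for the others.

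IEGs are transcribed within minutes of a stimulus without new protein synthesis, many of them through serum response factor and CREB, factors that are already present in the cell. FOS and JUN family proteins pair into the transcription factor AP-1, and *Egr1* and *Nr4a1* encode a zinc finger factor and an orphan nuclear receptor. *Atf3* is a stress-induced factor that also pairs with JUN proteins, *Ier2* encodes a small nuclear protein, and *Dusp1* encodes a phosphatase that switches off MAP kinases. In brain, these genes are known as marks of neuronal activity, and in microglia and other glia they are also known to be induced by the enzymatic preparation of cells.

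The genes lie on 8 chromosomes of the mouse genome (GRCm38), with *Ier2* (chr8:84661331-84662852, minus strand), *Junb* (chr8:84974484-84978718, minus strand) and *Jund* (chr8:70698949-70700616, plus strand) on the same one. Each of these 3 genes and *Jun* (chr4:95049034-95052222, minus strand) has 1 exon, whereas *Fos* (chr12:85473890-85477273, plus strand) has 4. RefSeq promoters (GRCm38.p6) were given for 8 of the 10 genes, not for *Egr1* and *Ier2*. The 250 bases before the transcription start are shown for 5 of the 6 genes that hold the core letters of the cAMP response element, to which CREB and ATF proteins bind. *Fos*, *Junb*, *Atf3* and *Nr4a1* are among the genes the results turn on, and *Dusp1* holds the full element. Capitals mark TGACG, these core letters, or CGTCA, the same letters on the other strand.
Fos (chr12:85473640-85473889, + strand): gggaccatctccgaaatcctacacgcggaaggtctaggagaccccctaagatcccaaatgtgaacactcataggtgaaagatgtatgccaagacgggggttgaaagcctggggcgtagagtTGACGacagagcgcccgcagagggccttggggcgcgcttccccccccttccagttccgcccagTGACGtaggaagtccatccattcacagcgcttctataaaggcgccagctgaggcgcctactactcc
Junb (chr8:84978749-84978998, - strand): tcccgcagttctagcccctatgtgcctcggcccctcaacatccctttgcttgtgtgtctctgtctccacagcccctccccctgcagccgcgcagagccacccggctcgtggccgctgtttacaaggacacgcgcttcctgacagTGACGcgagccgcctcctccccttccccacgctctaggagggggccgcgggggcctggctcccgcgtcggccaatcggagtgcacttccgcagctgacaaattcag
Atf3 (chr1:191183334-191183583, - strand): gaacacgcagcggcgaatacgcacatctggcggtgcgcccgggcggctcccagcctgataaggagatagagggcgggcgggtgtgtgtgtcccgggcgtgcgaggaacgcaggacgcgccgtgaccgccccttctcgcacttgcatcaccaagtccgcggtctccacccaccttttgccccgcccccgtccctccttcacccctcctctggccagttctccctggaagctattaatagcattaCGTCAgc
Dusp1 (chr17:26508473-26508722, - strand): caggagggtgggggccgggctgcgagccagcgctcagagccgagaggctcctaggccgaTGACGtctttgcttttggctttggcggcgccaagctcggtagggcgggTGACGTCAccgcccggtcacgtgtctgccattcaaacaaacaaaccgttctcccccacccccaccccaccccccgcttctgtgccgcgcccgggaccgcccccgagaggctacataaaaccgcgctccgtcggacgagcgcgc
Nr4a1 (chr15:101266596-101266845, + strand): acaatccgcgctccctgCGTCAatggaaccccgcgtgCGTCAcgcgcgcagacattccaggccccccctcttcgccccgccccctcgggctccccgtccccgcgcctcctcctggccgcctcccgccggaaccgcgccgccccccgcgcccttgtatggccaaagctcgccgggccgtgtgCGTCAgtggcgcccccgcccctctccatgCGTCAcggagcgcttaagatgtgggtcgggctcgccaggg
TGACG on either strand was found in 6 of the 8 promoters, those of *Atf3*, *Dusp1*, *Fos*, *Fosb*, *Junb* and *Nr4a1*, and in 17.9% of 27025 RefSeq promoters of this length. The full palindrome TGACGTCA, which holds TGACG on both strands, was in 1 of 8 (*Dusp1*) and in 1.62% of all. The AP-1 letters TGANTCA and the CArG box of serum response factor were in 0 of the 8, and in 6.87% and 1.40% of all promoters. These are letters in a window of 250 bases, not sites at which binding was measured.

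Filtering left 14622 cells. The median per cell was 513.5 (T101) to 1272.5 (P13) unique molecular identifiers (UMIs, counts of single transcript molecules). Total UMIs were 1294068 to 8410580 per file. Pairs of libraries shared 0 to 11 barcodes and 0 to 2 among kept cells. Clusters were made without the 10 IEGs, other IEGs and heat shock genes, and named from marker genes as X-like. Of the kept cells 1856 were left unnamed, among them 682 of 1498 in T101 and 224 of 777 in P3. Levels (CPM) are the UMIs of a gene scaled to 1000000 UMIs over all cells of a class in a sample. Deep cells weigh more in some samples: the deepest 5% of myeloid-like cells gave 14.4% (Nu-NB) to 52.3% (T192) of their UMIs. A UMI counts a molecule regardless of transcript length, so CPM of different genes can be set side by side. Gene symbols of the FACS samples are those of an older release, so that sort and symbol release cannot be told apart, and neither can sort and absence of tumor in Nu-NB.

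By median, IEG transcripts were most abundant in myeloid-like cells, the microglia and macrophages of the TME, and least abundant in astrocyte-like cells. The summed level of the 10 genes in myeloid-like cells had a median of 7058 CPM over 8 untreated samples, from 2826 in P8 to 8141 in Nu-NB. In endothelial-like cells, which line blood vessels, it had a median of 1781 CPM, from 1254 (P8) to 3542 (T233), and in astrocyte-like cells 702 CPM, from 384 (T16) to 1537 (T192, 7 samples). Myeloid-like cells were above endothelial-like cells in 8 of 8 samples and above astrocyte-like cells in 7 of 7, and endothelial-like above astrocyte-like cells in 7 of 7. Oligodendrocyte precursor cell (OPC)-like cells lay between the last 2 classes, with a median of 1227 CPM (974 to 1303, 6 samples). They were above astrocyte-like cells in 5 of 6 samples and below endothelial-like cells in 6 of 6. Mural-like cells, the pericytes and smooth muscle cells of vessels, had a median of 4281 CPM but ranged from 1599 (P8) to 7487 (P3), and were below myeloid-like cells in 6 of 8 samples. This median takes in the sums of T192, T233 and P3, which held more myeloid than mural marker transcripts, as given below. Choroid-like cells ranged from 289 CPM in P8, below the astrocyte-like cells of that sample (635), to 6314 in P3, and ependymal-like cells were at 1301 (T101), 6534 (T16) and 5854 CPM (P13). The 12 myeloid markers summed to 8845, 21622 and 18140 CPM in these 3 ependymal-like sums, and their part in the IEG levels was not tested.

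**Figure D1:**
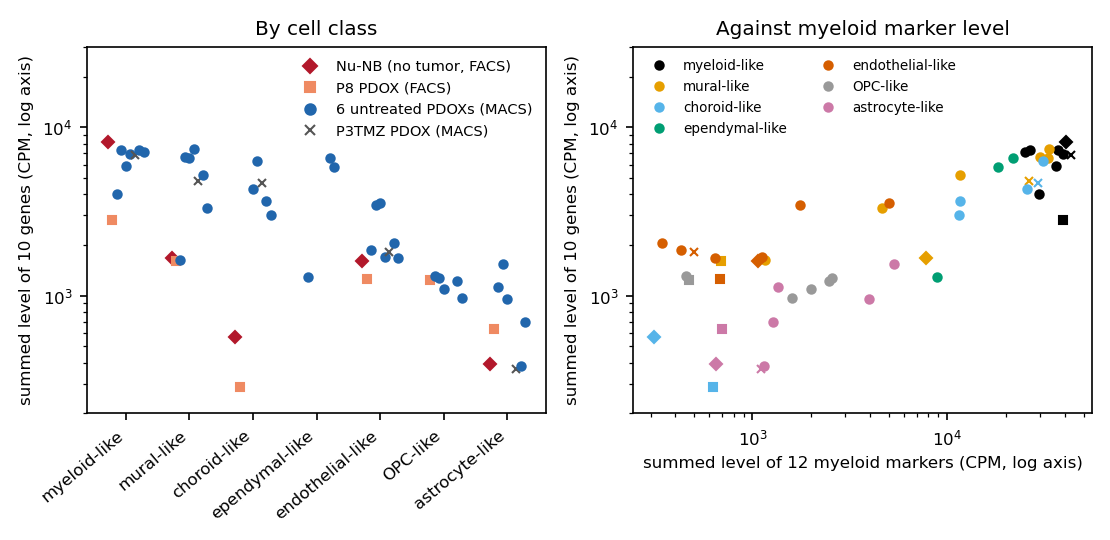
Summed level of the 10 IEGs (CPM, log axis) in each sample with at least 10 cells of a class, by class (left) and against the summed level of 12 myeloid markers in the same cells (right, log axes; marker shapes as on the left, colors are classes). Myeloid-like cells sit between 2826 and 8141 CPM, and 3 mural-like sums (6557 to 7487 CPM) lie near them on both axes.

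High mural-like values came with many myeloid transcripts in the same sums, though not in every sample. The 12 myeloid markers summed to 693 CPM in P8 and 1153 in T101, where the 10 IEGs were at 1599 and 1634 CPM. They summed to 30004, 33035 and 33254 CPM in T192, T233 and P3, where the IEGs were at 6713, 6557 and 7487. In Nu-NB (16 cells) the markers were at 7756 and the IEGs at 1686 CPM. P13, with the most mural-like cells (231), had fewer marker transcripts than Nu-NB (4595 CPM) but more IEG transcripts (3327 CPM), and T16 was at 11612 and 5235. For comparison, myeloid-like cells themselves held 25139 to 40474 CPM of these markers and endothelial-like cells 342 to 5014. The 9 mural markers summed to 5152 (T192), 2856 (T233) and 5997 CPM (P3), below the myeloid markers of the same sums. In the other untreated mural-like sums they were at 13524 (T16) to 26613 CPM (P8). The deepest 5% of the 30 mural-like cells of P3 gave 51.2% of their UMIs. The part of myeloid transcripts in the mural-like values was not tested.

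Barcodes with fewer than 200 detected genes, left out of all classes, were set beside these levels. They may hold free RNA or shallow cells, which was not tested, and their median UMIs reached 261 (T16). Their summed IEG level was 928 to 4741 CPM in the 7 untreated libraries with more than 3 such barcodes. Myeloid-like cells lay above such barcodes of their own library in 7 of 7, by 1.55 to 7.88 times, and astrocyte-like cells below them in 6 of 6, at 0.129 to 0.622 times. Endothelial-like cells lay above them in 3 and below them in 4 of 7.

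Among the AP-1 genes, *Jun* had the highest median of the 10 genes in myeloid-, mural-, endothelial-, OPC- and astrocyte-like cells. It was at 2000.5 CPM in the first of these, 286 in the last and 797 in endothelial-like cells. *Jun* made up 20.8% (T192) to 49.7% (Nu-NB) of all IEG UMIs of myeloid-like cells. *Egr1* (772 CPM), *Fos* (740), *Junb* (683) and *Atf3* (683) followed at like medians in myeloid-like cells, each with overlapping ranges over samples. *Ier2* (374), *Jund* (318), *Dusp1* (129) and *Fosb* (108) were lower, and *Nr4a1* was lowest at 49.8 CPM. The order differed between classes. In endothelial-like cells *Ier2* was second with a median of 300 CPM, and *Egr1* was at 75.6. In OPC-like cells *Egr1* was second with 178 CPM and above endothelial-like cells in 6 of 6 samples.

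All 10 IEGs were lower in endothelial-like than in myeloid-like cells of the same libraries (edgeR with sample as a block, FDR ≤ 0.05), where 27.5% of 7987 genes tested were lower. The difference was largest for *Egr1* (log2FC −3.75 ± 0.26 SE), *Atf3* (−3.46 ± 0.29), *Fosb* (−3.26 ± 0.29) and *Fos* (−2.59 ± 0.27). It was smallest for *Jund* (−0.68 ± 0.24), *Ier2* (−0.77 ± 0.23) and *Dusp1* (−0.96 ± 0.24), whose levels in the 2 classes were closest. All 10 were also lower in astrocyte-like than in myeloid-like cells, where 29.1% of 9731 genes were lower, from *Jund* (−2.14 ± 0.30) to *Atf3* (−4.21 ± 0.38). Of the IEGs outside the 10, a fixed list of 48 genes, 20 of 35 tested were lower and 5 higher in endothelial-like cells. Among the lower ones were *Cebpb* (−4.38) and *Nfkbiz* (−3.31), which encode factors of the inflammatory response, and among the higher ones *Plk2* (2.70), which encodes a kinase.

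Between endothelial-like and astrocyte-like cells the genes split. *Ier2* (2.77 ± 0.33), *Junb* (1.32 ± 0.30), *Dusp1* (1.16 ± 0.34), *Jun* (1.08 ± 0.23) and *Jund* (1.03 ± 0.29) were higher in endothelial-like cells, 5 of 8 tested, beside 23.9% of 6294 genes. *Fos* (0.07 ± 0.37, FDR 0.89), *Atf3* (0.25 ± 0.39, FDR 0.62) and *Egr1* (−0.30 ± 0.36, FDR 0.51) did not pass the test. Without removal of likely doublets 1 of 10 IEGs tested was higher and 4 were lower, beside 20% (1743) and 25.3% (2209) of 8720 genes. The astrocyte-like class then held 1366 to 21551 CPM of myeloid markers in the untreated samples, against 653 to 5326 with removal.

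In myeloid-like cells, the FACS-sorted samples differed from each other as well as from the MACS samples. P8 had the lowest level of 7 of the 10 genes, the others being *Jund* and *Dusp1*, lowest in T101, and *Atf3*, lowest in Nu-NB. Nu-NB had the highest level of *Jun* and *Jund*.

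*Jun* was at 4047 CPM in Nu-NB and 861 in P8, with 1327 (T101), 1530 (T192), 1805 (T233), 2478 (P3), 2196 (T16) and 2651 (P13) in the MACS samples. The FACS samples thus lay on both sides of all 6 MACS samples. *Jund*, whose product is known as the least inducible of the JUN family, was at 1378 CPM in Nu-NB, 330.5 in P8 and 193 to 406 in the MACS samples. Nu-NB stood above all others and P8 lay among the MACS samples. *Fos* was at 770 (Nu-NB) and 324 CPM (P8), against 446 (T101), 736 (T192), 515 (T233), 745 (P3), 876 (T16) and 960 (P13). *Egr1* was at 916 and 271 CPM, with MACS samples from 537 (T101) to 1568 (T16), median 772 over the 8. For both genes Nu-NB lay among the MACS samples and P8 below them.

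*Atf3* was at 164 CPM in Nu-NB and 358 in P8, and at 586 (T101), 909 (T192), 691 (T233), 674 (P3), 1020.0 (T16) and 904 (P13) in the MACS samples. *Ier2* was at 184 and 162 CPM, with MACS samples from 261 (T101) to 826 (T192). *Nr4a1* was at 17.4 and 13.9 CPM and at 49.1 to 153 (T192) in the MACS samples. *Junb* was at 442 and 406 CPM and at 522 (T101) to 1156 (T233). For these 4 genes both FACS samples lay below every MACS sample. This held for 4 of the 10 IEGs and for 6.54% of 8610 genes at 10 CPM or more, and 0 of the 10 lay above in both FACS samples, beside 11.7% of these genes.

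**Figure D2:**
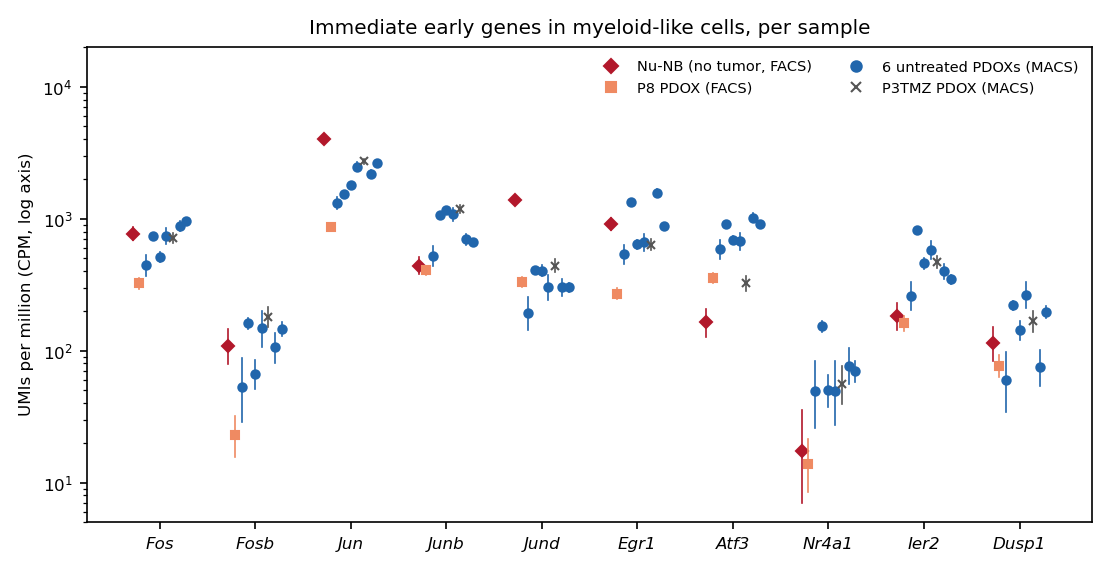
Level of each IEG in myeloid-like cells (CPM, log axis), 1 point per sample with an exact 95% Poisson interval that covers counting error only. *Junb*, *Atf3*, *Nr4a1* and *Ier2* are lower in both FACS samples than in all 6 untreated MACS samples, whereas *Jun* and *Jund* are highest in Nu-NB.

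By edgeR, 1 of the 10 IEGs passed FDR ≤ 0.05 between FACS and MACS myeloid-like cells, *Nr4a1* (−2.45 ± 0.52, FDR 0.0493), where 0.525% of 8958 genes were lower. *Atf3* (−1.69 ± 0.41, FDR 0.0948), *Ier2* (−1.63 ± 0.47, FDR 0.147) and *Junb* (−1.20 ± 0.43, FDR 0.223) did not pass, nor did *Jund* (1.20 ± 0.43, FDR 0.223). The *Nr4a1* call rests on 7 and 20 UMIs in the FACS samples and was lost without Nu-NB (−2.47), P8 (−2.39) or any MACS sample but T192, with FDR from 0.0012 to 0.37 over all alternatives. DESeq2 called *Atf3*, *Ier2* and *Nr4a1* lower, beside 2.07% of all genes by that tool. Of the other IEGs, 1 of 37 tested was lower, *Gadd45b* (−3.93 ± 0.45, FDR 0.00065), a growth arrest gene, and 31 of the 37 had a negative log2FC, with a median of −0.77 beside −0.03 over all genes. Of 11 heat shock genes, *Hspa8*, a constitutive chaperone, was higher in FACS samples (2.47 ± 0.35, FDR 0.0042) and *Hspa1a*, an inducible one that is named here after its value was seen, was lower (−4.73 ± 0.97, FDR 0.0422).

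To compare cells at an equal depth, each was thinned to 500 UMIs and shallower cells were left out. A UMI of *Atf3* was found in 5.38% of myeloid-like cells of Nu-NB and 11.5% of P8, and in 21.6% (P3) to 34.9% (T16) of cells of the 6 MACS samples. *Junb* was found in 15.5% and 13.2%, against 20.5% (T101) to 40.3% (T233). *Ier2* was found in 8.23% and 5.87%, against 11.7% (T101) to 30.6% (T192), and *Nr4a1* in 0.633% and 0.733%, against 2.30% to 5.96%. Each of these 4 genes reached p = 0.0357 when the 8 samples were permuted in all 28 ways (exact permutation test, two-sided), the smallest p this design allows and 0.0893 after Benjamini-Hochberg adjustment over the 10 genes. *Fos* (p = 0.321), *Egr1* (p = 0.214), *Jund* (p = 0.214) and *Jun* (p = 0.786) were above an unadjusted 0.05 in the same exact permutation test. At 1000 UMIs *Junb* (p = 0.107), *Ier2* (p = 0.214) and *Nr4a1* (p = 0.143) were above an unadjusted 0.05 in this permutation test and *Atf3* was at 0.0357. So were *Nr4a1* at 300 UMIs, and *Junb* and *Ier2* without doublet removal (p = 0.0714 each, exact permutation test).

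**Figure D3:**
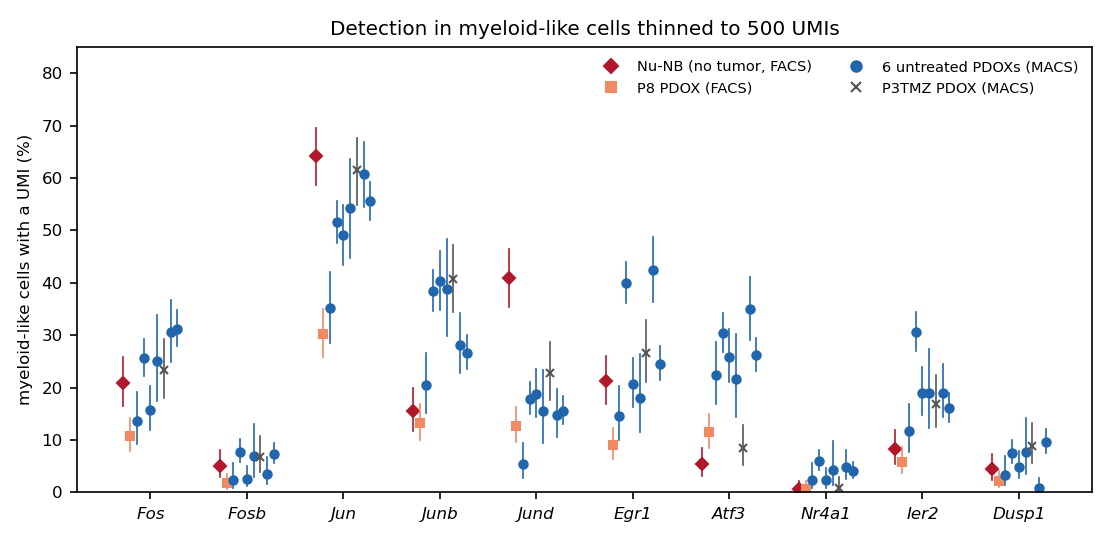
Share of myeloid-like cells with at least 1 UMI of each gene after thinning every cell to 500 UMIs, per sample, with exact 95% binomial intervals. The shares of *Junb*, *Atf3*, *Nr4a1* and *Ier2* are lower in Nu-NB and P8 than in all 6 untreated MACS samples.

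Many myeloid-like cells held transcripts of several IEGs. At 500 UMIs, at least 1 IEG was found in 59.4% of cells in P8, 78.5% in Nu-NB and 66.8% (T101) to 90.3% (T192) in the MACS samples. At least 2 different IEGs were found in 26.2% (P8), 51.3% (Nu-NB) and 38.5% to 69.4% of cells, and at least 5 in 0.733% (P8) to 13.5% (T192). In astrocyte-like cells of the same depth, which served as a class with little IEG expression, at least 2 were found in 1.27% (Nu-NB) to 12.5% (T101, 24 cells). Nu-NB thus lay within the range of the MACS samples and P8 below it, and these combined shares were not tested.

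Within myeloid-like cells the level of several IEGs followed cluster. A cluster led by *P2ry12*, *Gpr34* and *Siglech*, genes of surveilling microglia, held 90.1% of myeloid-like cells in Nu-NB, 16.4% in P8 and 3.63% (T101) to 40.8% (T16) in the MACS samples. A cluster led by *Spp1*, *Ccl6* and *Cst7*, genes of activated microglia, held 1.72% in Nu-NB (12 cells, with no *Spp1* UMI), 13.2% in P8 and 5.03% (T101) to 75.1% (P3) in the MACS samples. This pair of clusters was set side by side after their values were seen. The summed IEG level was higher in *P2ry12*-led than in *Spp1*-led cells in 8 of 8 samples, with medians of 11112 and 5114 CPM.

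*Jun* was higher in *P2ry12*-led cells in 8 of 8 samples. It was at 4194 (Nu-NB), 1279 (P8), 6624 (T101), 3664 (T192), 6545 (T233), 8546 (P3), 3407 (T16) and 5835 CPM (P13), and at 595 (Nu-NB) to 2322 CPM (T101) in *Spp1*-led cells. The ranges overlap only through P8 (1279 CPM). By edgeR with sample as a block, 5 of 9 IEGs tested were higher in *P2ry12*-led cells, where 5.73% of 1413 genes were higher: *Jun* (1.39 ± 0.23, FDR 1e-07), *Jund* (1.32 ± 0.26), *Egr1* (0.98 ± 0.24), *Fos* (0.82 ± 0.24) and *Junb* (0.76 ± 0.23). *Atf3* (0.05 ± 0.25, FDR 0.93) and *Ier2* (0.06 ± 0.26, FDR 0.91) did not pass, and each was higher in 4 of 8 samples. Median UMIs per cell were 400 to 983 in *P2ry12*-led and 392 to 980 in *Spp1*-led cells. Of other IEGs, 7 of 14 were higher, among them *Ier5* (1.08 ± 0.29) and *Klf2* (0.89 ± 0.31), and of 6 heat shock genes 0 passed. Without the sample block 2 IEGs were called, and without a filter on low counts 0.

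**Figure D4:**
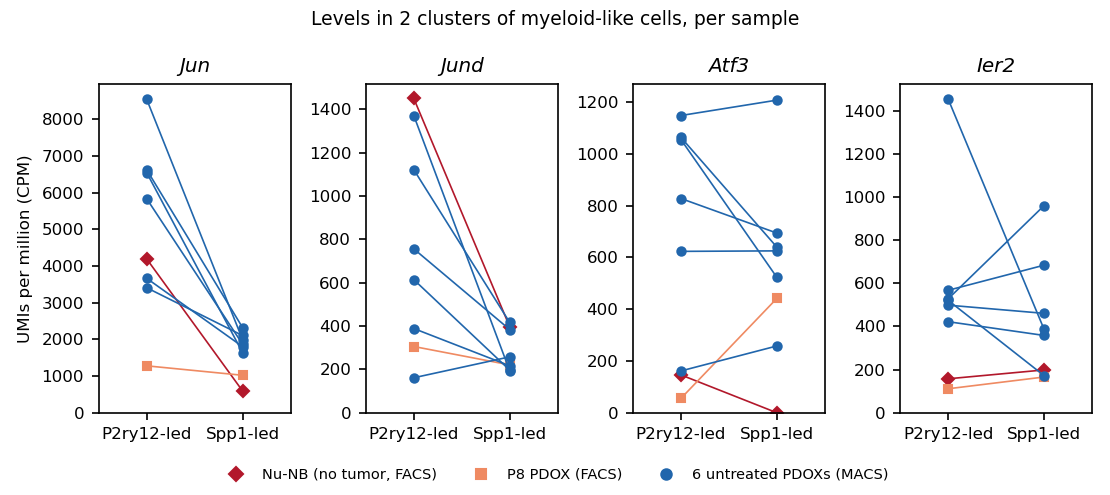
Levels (CPM) of *Jun*, *Jund*, *Atf3* and *Ier2* in *P2ry12*-led and *Spp1*-led myeloid-like cells, with a line for each untreated sample. *Jun* falls from left to right in 8 of 8 samples and *Jund* in 7 of 8, whereas *Atf3* and *Ier2* do so in 4 of 8, and in *P2ry12*-led cells Nu-NB and P8 lie below all 6 MACS samples for *Ier2*.

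Within *P2ry12*-led cells alone, a comparison also added after values were seen, *Jun* had a log2FC of FACS over MACS of −1.06 ± 0.45 (FDR 0.163), beside 0.09 ± 0.50 over all myeloid-like cells. Neither passed, and Nu-NB (4194 CPM) lay above T192 and T16. *Atf3* (−3.06 ± 0.53, FDR 1.9e-05), *Ier2* (−2.14 ± 0.48, FDR 0.0013) and *Junb* (−1.87 ± 0.49, FDR 0.0080) were lower in FACS samples, 3 of 10 IEGs, where 4.62% of 1473 genes were lower. *Atf3* in these cells was at 146 CPM in Nu-NB and 55.6 in P8, and at 162 (T101, 13 cells) to 1148 (T16) in the MACS samples. Both FACS samples were below every MACS sample, but the T101 value is 1 UMI of 6190, so that its place above Nu-NB rests on a single molecule. *Jund* was at 1451 CPM in Nu-NB, 306 in P8 and 162 (T101) to 1372 (P3), so that Nu-NB alone was above all MACS samples.

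Another cluster, led by *Mrc1* and *Ms4a7*, genes of border-associated macrophages, held at least 10 cells in Nu-NB (27), T16 (37) and P13 (31). *Fos* was at 1600.2, 1534 and 2333 CPM there, above the *P2ry12*-led cells of the same samples (692, 842 and 1265 CPM). *Atf3* was at 160.0 CPM in the Nu-NB cells, which is 3 UMIs, and at 1315 and 1355 in those of T16 and P13.

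In astrocyte-like cells *Egr1*, *Atf3* and *Ier2* had 8, 6 and 2 UMIs in both FACS samples together, of 1158129. *Egr1* was at 8.60 CPM in Nu-NB and 5.20 in P8, and at 158 (T101), 271 (T192), 41.5 (T233), 42.6 (T16) and 67.1 (P13) in the MACS samples. *Atf3* was at 3.44 and 6.94 CPM, against 22.6 (T101) to 187 (T233), and *Ier2* at 0 and 3.47 CPM, against 19.0 (T16) to 99.0 (T192). Both FACS samples lay below all 5 MACS samples for these 3 genes, and this held for 5.33% of 8647 genes. The lowest MACS values of *Atf3* (T101) and *Egr1* (T233) lie under the level of 3 counts, 67.9 CPM in T101 and 62.3 in T233. The placement of these genes thus rests on few molecules and is not resolved at this depth. *Egr1* (−4.03 ± 0.74, FDR 0.0067), *Atf3* (−3.73 ± 0.78, FDR 0.0146) and *Ier2* (−4.58 ± 1.12, FDR 0.0404) passed edgeR, 3 of 7 IEGs tested, where 1.19% of 4457 genes were lower. These 3 genes passed the filter on low counts through the MACS samples, which fixed their direction, and nothing is read from this count. *Fos* (−0.67 ± 0.59, FDR 0.57) and *Jun* (−0.47 ± 0.39, FDR 0.54) did not pass, and their levels overlapped between the sorts.

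Without Nu-NB 0 IEGs were called and 0 without P8, beside 0.111% of 5402 and 0.0915% of 5464 genes lower, with *Egr1* at −4.41 (FDR 0.093) and −3.62 (FDR 0.106). Myeloid markers summed to 653 and 695 CPM in the FACS astrocyte-like cells and to 1142 (T16) to 5326 CPM (T192) in the MACS ones. The part of myeloid RNA in these values was not tested. A subcluster of 36 cells counted as astrocyte-like was led by *Cnot2*, *Efemp1* and *Cand1*. *Cnot2* and *Cand1* were also among the leading genes of unnamed subclusters of the same cluster, and the identity of these cells was not tested. Astrocyte markers summed to 27641 CPM in T101 and to 30652 (T16) to 41104 CPM (P8) in the other untreated astrocyte-like sums. *Btg2*, an antiproliferative IEG, was the 1 of 16 other IEGs that was lower (−2.10 ± 0.48, FDR 0.0294), and *Hspa8* was higher (3.20 ± 0.46, FDR 0.0013).

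In endothelial-like cells 0 of 8 IEGs passed edgeR between the sorts, where 0.508% of 4526 genes were lower. Of the 8, 4 had an unadjusted p under 0.05, as did 14.8% of all genes, and DESeq2 called *Ier2*, beside 1.17% of all genes lower by that tool. *Ier2* was at 0 CPM in Nu-NB and 141 in P8, and at 250 (P13) to 433 CPM (T233) in the MACS samples (−1.81 ± 0.54, FDR 0.136). *Fos* was at 0 and 44.2 CPM, against 100.1 (P13) to 239 (T16), and *Egr1* at 0 and 35.3, against 50.4 (P3) to 130.0 (T233). Both FACS samples lay below all 6 MACS samples for these 3 genes, as for 10.4% of 8323 genes. *Atf3* did not follow, at 179 CPM in Nu-NB, above all PDOXs, 44.2 in P8 and 43.5 (T192) to 173 (T233) in the MACS samples. The Nu-NB value is 3 UMIs. Nu-NB held 35 endothelial-like cells with 16803 UMIs, so that a count of 0 allows up to 179 CPM by counting error. That is above all MACS values of *Egr1* and the lowest of *Fos*, whose placement is thus not resolved, and below those of *Ier2*. At 500 UMIs per cell, *Ier2* was found in 0 of 11 cells of Nu-NB and 9.47% of P8, and in 11.3% (P13) to 27.0% (T233) of the MACS samples (exact permutation p = 0.0357, the smallest possible, 0.357 adjusted over 10 genes).

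In mural-like cells 0 of 9 IEGs passed, where 0.37% of 2431 genes were lower, and 8 of the 9 had an unadjusted p under 0.05, beside 21.4% of all genes. *Atf3* and *Fosb*, 2 of these 8, had no UMI in either FACS sample, so that the filter on low counts fixed their direction. DESeq2 called *Atf3* and *Junb*, beside 2.55% of all genes lower by that tool. *Junb* was at 0 (Nu-NB) and 127 CPM (P8), against 288 (T101) to 1139 (T192). *Junb*, *Ier2* and *Nr4a1* lay below all MACS samples in both FACS samples, as did 4.67% of 8585 genes. The 16 cells of Nu-NB held 0 UMIs of these 3 genes, which allows up to 337 CPM, above the lowest MACS values, so that this placement is not resolved at this depth. The myeloid transcripts in these sums are given above.

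**Figure D5:**
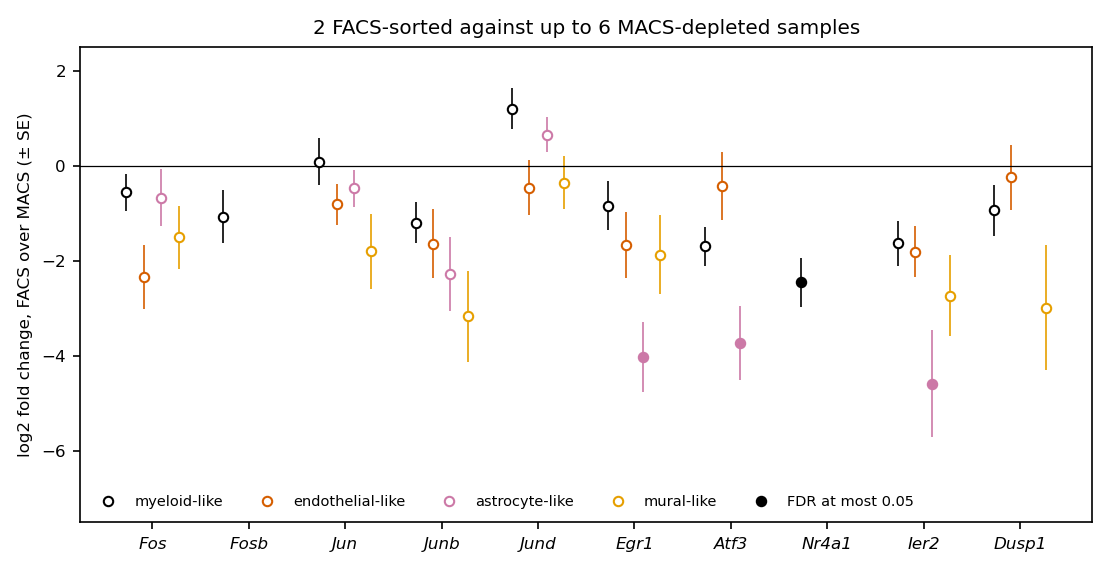
Log2 fold change of FACS over MACS samples (edgeR, ± SE) for each IEG tested in 4 classes, with filled points at FDR ≤ 0.05. Genes with no UMI in both FACS samples are left out, and 4 points are filled, *Nr4a1* in myeloid-like and *Egr1*, *Atf3* and *Ier2* in astrocyte-like cells. The filled astrocyte-like points rest on 8, 6 and 2 UMIs in the FACS samples, and the filter on low counts fixed their direction.

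In choroid-like cells, named after the cells that make cerebrospinal fluid, IEG levels were far apart between the sorts. The sums compared were unlike in their myeloid markers, as given below. The 69 cells of Nu-NB and P8 held 116217 UMIs and no UMI of *Fos*, *Fosb*, *Junb*, *Ier2*, *Dusp1*, *Atf3* or *Nr4a1*. In the pooled cells of 4 MACS samples *Junb* was at 513, *Atf3* at 463 and *Fos* at 393 CPM, at least 19.9-, 17.9- and 15.2-fold higher than the 3 counts over the group that a count of 0 allows. *Jun* was at 208 CPM in Nu-NB and 30.9 in P8, and at 1038 (P13) to 2359 (P3) in the MACS samples. *Jund* did not follow, at 364 and 247 CPM against 164 (P13) to 318 (P3).

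By edgeR 8 of 10 IEGs were lower, where 10.3% of 4478 genes were lower. Without P8, 0 IEGs were called beside 0.0% of 6836 genes lower, with *Jun* at −3.65 (FDR 0.161). The 7 genes with no UMI in the FACS cells passed the filter on low counts through the MACS samples alone, which fixed their direction, and nothing is read from this count. *Jun*, with UMIs in both sorts, had a log2FC of −4.62 ± 0.80 (FDR 0.0029), but its FACS values rest on 4 UMIs in Nu-NB and 3 in P8. Myeloid markers summed to 312 and 629 CPM in the FACS choroid-like cells. In the MACS ones they were at 11476 (P13) to 31027 CPM (P3), beside 25139 (P13) to 40474 CPM (Nu-NB) in myeloid-like cells. The IEG difference thus moved with myeloid transcripts in the choroid-like sums, and their part in it was not tested.

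The question of the study, how TME cells of PDOXs differ from those of the tumor-free brain, was put to the same genes. It shares Nu-NB, P8 and the MACS samples with the comparison of sorts, so that the results are not independent. In 5 classes 0 IEGs passed FDR ≤ 0.05 between 7 PDOXs and Nu-NB by edgeR, where 0.0% of 9927 genes passed in myeloid-like cells and 1704 of them had an unadjusted p under 0.05. In that class *Atf3* had a log2FC of PDOXs over Nu-NB of 2.40 ± 0.59 and *Jund* of −1.85 ± 0.37 (FDR 0.149 for both). DESeq2 called both, beside 4.28% of all genes by that tool, with the single Nu-NB library assumed to vary like the PDOXs. *Jun* had a log2FC of −0.90 ± 0.51 (FDR 0.383). All 7 PDOXs lay above Nu-NB for *Atf3*, as for 19.1% of 8610 genes, and below it for *Jun* and *Jund*, as for 30.6%. P8, the PDOX with the same sort as Nu-NB, was at 358 against 164 CPM for *Atf3*, 330.5 against 1378 for *Jund* and 861 against 4047 for *Jun*. Within *P2ry12*-led cells alone *Jun* had a log2FC of 0.16 ± 0.60 (FDR 0.97), *Jund* of −1.19 ± 0.56 (FDR 0.40) and *Atf3* of 2.39 ± 0.83 (FDR 0.17), with 1.47% of 2382 genes passing.

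Cells that held transcripts of at least 2 of the 10 IEGs also held more of the others. When myeloid-like cells with at least 2 IEGs at 500 UMIs were compared with those that held none, with the 10 genes left out and sample as a block, 14 of 15 other IEGs were higher, beside 2.77% of 1443 genes. *Btg2* (2.38 ± 0.23), *Ier3* (1.97 ± 0.30), *Nfkbiz* (1.88 ± 0.25), *Zfp36* (1.67 ± 0.22) and *Nfkbia* (1.66 ± 0.17) changed most. *Zfp36* encodes a protein that destabilizes inflammatory mRNAs and *Nfkbia* an inhibitor of NF-κB. Of 7 heat shock genes 0 passed, with a median of 0.18, and of 12 genes of homeostatic microglia 0 passed, with a median of −0.02, beside 0.01 over all genes. Without the sample block 2 of 11 other IEGs passed.

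Transcripts of different IEGs were also found in the same cells. In 44 of 45 pairs, the median share of myeloid-like cells with the second gene was higher among cells with the first gene than among cells without it. Of 35 pairs that could be followed in 8 samples, 14 were higher in 8 of 8. Pairs of other genes of like level were not examined, so these counts have no background and are values only. *Fosb* was found in 11.6% of cells with *Fos* and 2.71% of cells without it (medians), and was higher with *Fos* in 6 of 8 samples. *Egr1* was found in 37.2% of cells with *Fos* and 17.4% of cells without it, also higher with *Fos* in 6 of 8 samples. *Jun* and *Nr4a1* were the exception, with 2.66% and 3.12%. *Jun*, *Jund*, *Egr1*, *Fos* and *Junb* were all higher in *P2ry12*-led cells, and the part of these cells in the shares was not tested.

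Across samples, the 10 genes moved together to unlike degrees. Over 23 sums of myeloid-, endothelial- and astrocyte-like cells, as deviations from the class mean, the Pearson correlation of each gene with the mean of the other 9 was highest for *Egr1* (0.83) and *Junb* (0.77) and lowest for *Jund* (0.03). *Atf3* was at 0.31, and *Nr4a1* (0.49), *Jun* (0.57), *Dusp1* (0.57), *Fos* (0.67), *Fosb* (0.72) and *Ier2* (0.74) lay between. Outside the 10, the genes most like their mean among 3829 genes at 50 CPM or more were *Sgk1* (r = 0.85), *Aif1* (0.82), *Btg2* (0.82), *Oat* (0.82) and *Pdgfa* (0.81). Within the sums of myeloid-like cells alone r was 0.67, 0.40, 0.80, 0.50 and 0.35 for these genes, and it was 0.84 or more within each of the other classes. Points of a library share its depth, sort and free RNA, and *Aif1* is a myeloid marker, so these are descriptions of 23 sums.

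TMZ-treated P3 was compared with untreated P3 as values, with 1 sample on either side and no test. In myeloid-like cells the exact 95% intervals did not overlap for *Atf3* (674 CPM untreated, 325 after TMZ), *Dusp1* (266 and 167) and *Jund* (305 and 442). The intervals were apart for 6.72% of 7682 genes at a mean of 10 CPM or more and for 18.9% of 1543 genes at 100 CPM or more, where all IEGs but *Nr4a1* lie. They overlapped for the other 7 genes, such as *Jun* (2478 and 2720) and *Fos* (745 and 711). The *Atf3* level after TMZ was below all 7 untreated PDOXs, and those of *Jund*, *Jun*, *Junb* and *Fosb* were above them, 5 of the 10. P3TMZ lay outside the untreated PDOXs for 23.0% of genes at 10 CPM or more and 18.7% at 100 CPM or more. *P2ry12*-led cells were 6.59% of myeloid-like cells in P3 and 32.3% in P3TMZ, and their part in these values was not tested.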

How the data were processed

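Drop-seq libraries of 9 samples were analysed. The authors aligned reads with STAR to GRCm38/mm10 (bcl2fastq 2.0 for base calls, from the submitters' processing notes) and deposited raw UMI counts per gene and cell. The version of STAR is not given in the sources used here. Which samples were sorted by FACS or MACS comes from the methods of the study, since the labels only say that either was used.

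Barcodes under 200 genes or above 30% mitochondrial UMIs were dropped, and the 5% of cells per sample with the highest scrublet doublet scores were removed. Cells were clustered with scanpy 1.11.5 (2000 variable genes, 30 components, 20 neighbors, Leiden resolution 1) without the 10 IEGs, 48 other IEGs and 12 heat shock genes. Clusters were named from marker lists, by a rule set with the clusters in view. The 10 genes and all lists were chosen with earlier results of these data known. Named in the text are the 10, up to 5 genes of each other list per comparison with the largest absolute log2FC among those that passed the test at a mean of 50 CPM or more, and the 5 genes most like the mean log2(CPM + 10) of the 10.

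UMIs were summed over cells of a class and sample with at least 10 cells and tested with edgeR 4.0.16 (TMM, quasi-likelihood test, R 4.3.3) over all genes, with Benjamini-Hochberg adjustment (FDR) and SE beside each log2FC. DESeq2 1.42.0 was an alternative. Class comparisons and comparisons between cells of the same libraries had the sample as a block. P3TMZ entered no test. Shares at 500 UMIs per cell were compared by two-sided exact permutation of samples (scipy 1.17.1). Intervals at 95% (exact Poisson for CPM, exact binomial for shares) and the limit of 3 counts for a count of 0 cover counting error only. Each PDOX is 1 library of its own model, so p-values measure the spread between these libraries, not between mice of a model. The edgeR fit was tested on simulated data.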

Additional observations from a re-analysis of the deposited data

Results flagged for a closer look

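Of 40 groups of untreated PDOXs examined for a sample far from the others, 2 held one, where chance gives about 1 in 20. *Atf3* in endothelial-like cells was at 173.286 CPM in T233, with the next of the 7 PDOXs at 88.3 CPM, a gap of 0.655 of the whole range. T233 also had the highest level of myeloid markers in endothelial-like cells, at 5014 CPM, and their part in the value was not tested. *Fosb* in astrocyte-like cells was at 36.48 CPM in T192, with the next of 6 PDOXs at 10.7 CPM, a gap of 0.706 of the range. Myeloid markers were at 5326 CPM in these cells, the highest of the astrocyte-like sums, and their part was not tested either.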

How the results depend on the processing

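The counts of IEGs that passed the test depended on the fit in several classes. In astrocyte-like cells the filter on low counts fixed the direction of the 3 genes called, so the counts of that class are values only. Between FACS and MACS samples, 1 IEG was lower in myeloid-like cells, and this count was 0 at a stricter threshold (FDR ≤ 0.01 and a log2FC of at least 1), 3 with DESeq2, 0 with library totals in place of TMM, 0 with at least 500 genes per cell, 3 in *P2ry12*-led cells alone and 0 to 1 with a library left out. In astrocyte-like cells 3 of 7 tested became 1 at the stricter threshold, 9 of 10 without doublet removal (12.1% of 8893 genes lower), 1 of 4 with thinned cells (2.34% of 1713) and 0 to 3 with a library left out. In choroid-like cells, where 7 genes without UMIs in the FACS cells had a fixed direction and the counts are values only, 8 of 10 were lower, all 3 of the 3 that could be tested with thinned cells (27.2% of 228 genes lower), and 0 to 8 with a library left out. In endothelial-like cells 0 became 1 with DESeq2 and 1 without doublet removal. In mural-like cells 0 became 2 with DESeq2 (1 of them *Atf3*, without UMIs in the FACS cells), 1 with library totals, 2 with no filter on low counts, 1 without doublet removal, 1 at Leiden resolution 2 and 0 to 1 with a library left out. Over these alternatives, leaving out libraries aside, 0.156% to 4.62% of all genes were lower in myeloid-like, 0.337% to 12.1% in astrocyte-like, 2.68% to 27.2% in choroid-like, 0.0421% to 1.17% in endothelial-like and 0.0% to 2.55% in mural-like cells. Between PDOXs and Nu-NB, 0 became 1 in astrocyte-like cells with no filter (12 of 12398 genes called), and in myeloid-like cells 2 with DESeq2 (4.28% of 9927) and 0 to 1 with a library left out (1 without P8, 73 of 8883 genes).

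The 5 IEGs higher in endothelial-like than astrocyte-like cells became 1 without doublet removal, where *Junb* turned to −0.27. For cells with at least 2 IEGs, 14 other IEGs became 8 at 1000 UMIs, 2 with no replicate block and 11 to 16 with a library left out. For *P2ry12*-led cells, 5 became 2 at the stricter threshold, 0 with no filter on low counts, 2 with no replicate block, 3 with T192 and T233 summed, 3 against every *Spp1*-led cluster and 3 to 5 with a library left out (3 without T233), where 0.0736% to 7.18% of genes were higher over the alternatives other than left-out libraries. With no replicate block, the pairing of cells within libraries being dropped, 7 IEGs were lower in endothelial-like (24.2% of 5216 genes) and 9 in astrocyte-like (25.4% of 6998) than in myeloid-like cells, and 5 were higher in endothelial-like than astrocyte-like cells (30.4% of 3578). *Jun* between FACS and MACS myeloid-like cells (0.09) turned to −0.0818 without doublet removal, −0.060 with at least 500 genes, −0.012 with thinned cells, from −1.22 (without Nu-NB) to 0.77 (without P8) with a library left out, and −1.06 in *P2ry12*-led cells alone. Except where a value above shows it, the cause of these changes was not tested. Thinning and *P2ry12*-led cells alone were chosen after seeing the data. Of values for single genes, 929 kept direction and side of the threshold, 77 lost and 12 gained the call, and 6 reversed. Fits with at least 500 genes for mural-like cells (both comparisons) and for choroid- and endothelial-like cells (PDOXs against Nu-NB), and with thinned mural-like cells (PDOXs against Nu-NB), could not be run. With 2 FACS libraries and 1 Nu-NB library, depth and number of libraries limit every comparison of sorts.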
